A study of Mus musculus with 6 samples.

Results

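The enzymes that make prostaglandins were followed in muscle cells of the mouse oviduct with and without Pbrm1. The set comprised 10 genes, chosen by symbol among the 54232 genes of the deposited count table: the phospholipase Pla2g4a, the cyclooxygenases Ptgs1 and Ptgs2, the prostaglandin E synthases Ptges, Ptges2 and Ptges3, the prostacyclin synthase Ptgis, the thromboxane synthase Tbxas1, the prostaglandin D synthase Hpgds and the aldo-keto reductase Akr1c18. All 10 were found and all 10 passed the filter on low counts.

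RNA-seq was performed on primary oviductal muscle cells from mice of 8 to 12 weeks on day 2 of pregnancy after mating with stud males. There were 3 libraries labelled WT and 3 labelled Pbrm1 cKO, which carry a conditional deletion of Pbrm1. In both groups the tissue was digested with trypsin, collagenase and dispase, filtered, plated for 4 h in medium with 12% charcoal-stripped serum and kept for 2 h more in 10% serum before lysis, so every library had been through digestion and serum. The study's methods place the cre at the progesterone receptor gene (PR-IRES-cre), which deletes in all cells that express this receptor and not in muscle alone. The labels call the controls WT, whereas a legend in the study's supplement names Pbrm1 fl/fl animals and speaks of biological replicates. The Pgr cre line was a stock of B6.129S(Cg) background per the methods, while that of the floxed and control animals is not given in the sources used here. Whether each library is from 1 animal or from pooled animals is likewise not given. The p-values therefore take the library as the unit, and how far they cover variation between animals is unknown.

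Prostaglandins are short-lived lipid signals made near the place where they act. Phospholipase A2 frees arachidonic acid from membranes, the cyclooxygenases turn it into the common intermediate prostaglandin H2, and terminal synthases turn that into prostaglandin E2, D2 or F2α, prostacyclin or thromboxane. In the oviduct, as in other hollow organs, prostaglandins act on smooth muscle through receptors that contract or relax it, and Ptgs2 is widely known as a gene that is switched on quickly by serum, cytokines and injury.

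Library totals ran from 15390818 to 18947947 counts, and mitochondrial genes took 7.95 to 8.24% of them in WT and 6.88 to 7.81% in cKO. Values are given as CPM, read counts divided by library size and the edgeR normalization factor, and a count of 3 was worth 0.158 to 0.195 CPM. Pbrm1, the targeted gene, averaged 175 ± 7.09 CPM in WT libraries, and the cKO libraries kept 45.6 ± 4.39 CPM (SD, n = 3), 26.0% of that level. All 12 smooth muscle markers examined, such as Acta2, Tagln and Myh11, were measured in every library, but so were all 12 markers of fibroblasts, all 12 of epithelium and all 8 of leukocytes. Summed over each list, smooth muscle markers took 4980 to 5138 CPM in WT and 6047 to 6571 CPM in cKO, fibroblast markers 6580 to 7298 and 9880 to 10195 CPM, epithelial markers 1089 to 1183 and 1215 to 1349 CPM, and leukocyte markers 112 to 116 and 191 to 209 CPM. The libraries therefore held RNA of several cell types, and in such bulk samples fewer cells of a type and less RNA per cell cannot be told apart.

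Ptgs2 fell to 36.0% and Akr1c18 to 38.0% of WT in Pbrm1 cKO cells, Ptgs1 and Pla2g4a fell less, Ptges and Tbxas1 rose, and the differences of Ptges2, Ptges3, Ptgis and Hpgds did not pass the test. Thus 6 of the 10 genes passed the edgeR test (adjusted p-value below 0.05), of which 2 rose and 4 fell in cKO. This share has to be read against the whole transcriptome, in which 43.7% of 15376 tested genes were called, 21.9% higher and 21.8% lower. The median log2 fold change was -0.07 over the 10 genes and 0.00 over all tested genes. The CPM ranges of WT and cKO did not overlap for 8 of the 10 genes, 3 above and 5 below WT, while this was so for 53.5% of all tested genes (26.6% above and 26.9% below).

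**Figure D1:**
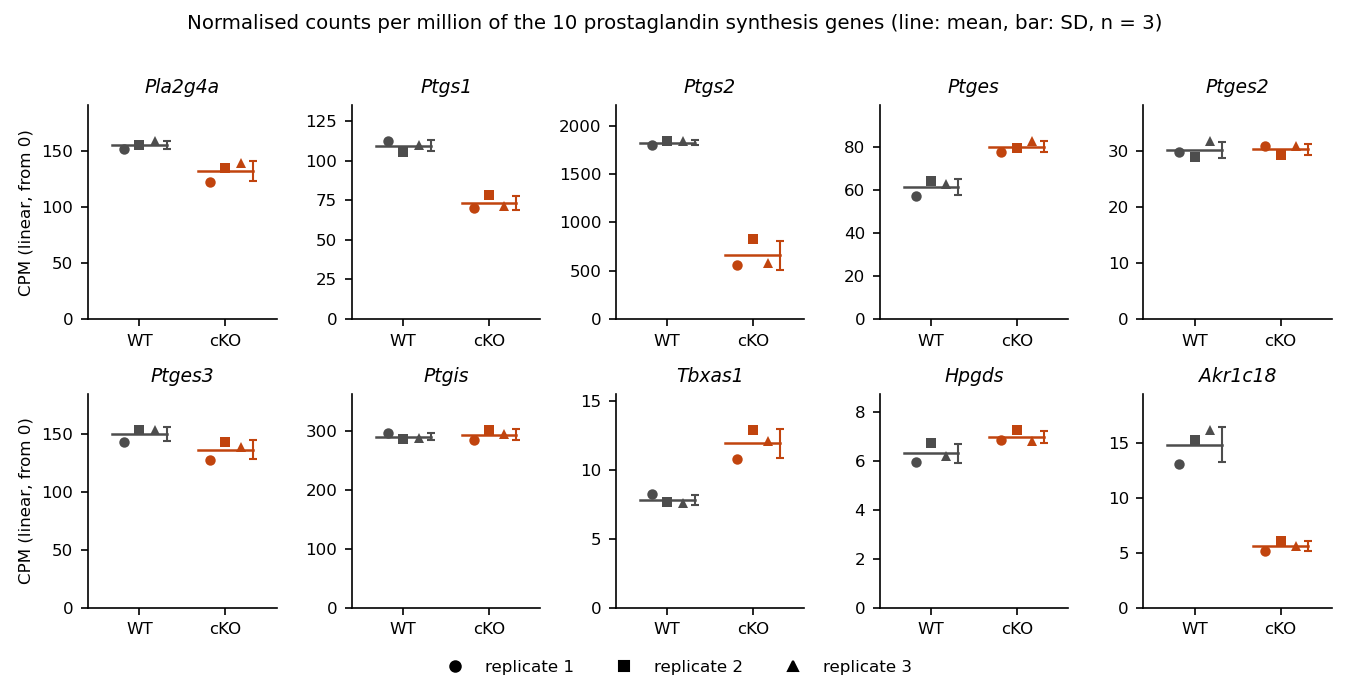
Normalised read counts (CPM, linear axes from 0) of the 10 synthesis genes in each library, WT in grey and Pbrm1 cKO in orange, with symbols for the replicates, lines for the means and bars for the SD (n = 3). Ptgs2, Ptgs1 and Akr1c18 lie far below WT in all 3 cKO libraries, Ptges and Tbxas1 lie above, and Ptges2 and Ptgis overlap.

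To show the regions from which the genes with the clearest differences start, the 250 bases before the RefSeq start site (GRCm38.p6) are given for both cyclooxygenases, for Akr1c18 and for Ptges, the last as the more abundant gene of the set that rose. The letters searched for on both strands in 300-base windows (250 before and 50 after the start) were those of the TATA box (TATAAA), the CCAAT box (CCAAT), the GC box (GGGCGG), the cAMP response element (TGACGTCA) and its shorter form (CGTCA, which also lies within the longer one), the E-box (CACGTG), AP-1 (TGANTCA), C/EBP (TTGCGCAA) and the NF-kB site. Capitals mark matches.
Ptgs2, chr1:150099781-150100030, plus strand: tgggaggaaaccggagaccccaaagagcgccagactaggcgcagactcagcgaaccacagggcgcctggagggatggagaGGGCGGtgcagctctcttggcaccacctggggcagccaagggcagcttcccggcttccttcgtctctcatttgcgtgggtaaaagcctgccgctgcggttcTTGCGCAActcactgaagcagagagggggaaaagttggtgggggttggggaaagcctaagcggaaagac
Ptgs1, chr2:36230176-36230425, plus strand: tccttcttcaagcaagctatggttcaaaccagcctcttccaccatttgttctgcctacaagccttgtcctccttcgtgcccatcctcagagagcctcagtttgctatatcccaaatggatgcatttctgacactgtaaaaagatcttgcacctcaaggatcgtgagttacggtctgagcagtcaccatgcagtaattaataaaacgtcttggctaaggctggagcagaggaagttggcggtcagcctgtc
Akr1c18, chr13:4150647-4150896, minus strand: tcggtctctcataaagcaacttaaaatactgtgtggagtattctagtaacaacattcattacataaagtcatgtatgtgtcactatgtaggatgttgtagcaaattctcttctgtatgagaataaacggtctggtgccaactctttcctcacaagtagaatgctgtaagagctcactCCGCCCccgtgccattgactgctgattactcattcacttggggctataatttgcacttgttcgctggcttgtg
Ptges, chr2:30903298-30903547, minus strand: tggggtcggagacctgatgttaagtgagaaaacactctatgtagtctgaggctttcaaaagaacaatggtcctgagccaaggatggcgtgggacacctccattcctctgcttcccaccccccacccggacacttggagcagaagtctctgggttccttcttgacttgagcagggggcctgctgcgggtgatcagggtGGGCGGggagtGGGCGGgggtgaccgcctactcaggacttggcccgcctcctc

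Counting the start site as base 1 and the base before it as -1, the Ptgs2 window held a GC box from -170 and a C/EBP match from -69. It also held, after the RefSeq start, the shorter cAMP element (CGTCA) from 14 that overlaps an E-box from 17. Whether these letters lie before or after the start used in these cells was not measured. They are shown with their neighbours because Ptgs2 is well known to be driven through such an element.
Ptgs2, chr1:150100036-150100060, plus strand: caccactaCGTCACGTGgagtccgc
The C/EBP letters stood in 0.183% of 32851 windows in the RefSeq table, the E-box in 7.15%, the shorter cAMP element in 20.8% and the GC box in 35.7%. The C/EBP letters were corrected after the windows had been seen, so their low share does not measure how unusual the Ptgs2 match is. Ptges held GC boxes from -53 and -42 and Akr1c18 held 1 from -73, while none of the letters searched stood in the window of Ptgs1. The RefSeq start of Ptges lies inside the longer gene of the deposited annotation. Such matches describe these letters and not the binding of a factor. All positions count from the RefSeq start sites, and where transcription began in these cells was not measured. The table held windows for 9 of the 10 genes.

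Pla2g4a (ENSMUSG00000056220.14; GRCm38 chromosome 1, 149829618 to 149961290, minus strand) encodes cytosolic phospholipase A2 alpha, which frees arachidonic acid when calcium rises. It was at 152, 156 and 159 CPM in WT replicates 1, 2 and 3 and at 122, 135 and 139 CPM in cKO replicates 1, 2 and 3. All cKO libraries were below all WT libraries, but the gap was small. The cKO mean was 84.8% of the WT mean, a log2 fold change of -0.24 (SE 0.052, edgeR adjusted p = 0.00231).

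Of the other phospholipases and genes that release, bind or re-esterify arachidonate, 16 of 28 passed the filter, and 10 of these differed, 5 higher and 5 lower (median log2 fold change 0.03). Counts in this and the later lists have to be read against all tested genes, of which 21.9% were called higher and 21.8% lower. The 12 that did not pass the filter include most secreted phospholipases. The largest decreases were those of Mgll, the lipase that splits 2-arachidonoylglycerol, which went from 12.1 to 7.0 CPM (-0.79), and of Pla2g16, a phospholipase best known from adipose tissue, from 13.7 to 8.02 CPM (-0.77). Mboat7, which puts arachidonate back into phosphatidylinositol, was also lower (-0.29). Dagla, which makes 2-arachidonoylglycerol (0.53), Pla2g7, which inactivates platelet-activating factor (0.42), and the secreted phospholipase Pla2g12a (0.34) were higher. The call of Pla2g12a was lost without WT replicate 2 (edgeR adjusted p = 0.0576).

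Ptgs1 and Ptgs2 encode the cyclooxygenases, the former usually constitutive and the latter inducible, and both fell. Ptgs1 (ENSMUSG00000047250.13; chromosome 2, 36230426 to 36252272, plus strand) gave 113, 106 and 110 CPM in WT against 70.2, 78.6 and 71.2 CPM in cKO replicates 1, 2 and 3. The lowest WT library lay well above the highest cKO library. The cKO mean was 67.0% of the WT mean, a log2 fold change of -0.58 (SE 0.054, edgeR adjusted p = 1.95e-06).

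Ptgs2 (ENSMUSG00000032487.8; chromosome 1, 150100031 to 150108227, plus strand) was supported by the most reads of the set, with 30437, 34401 and 31525 reads counted in WT and 10020, 15699 and 9022 in cKO. These correspond to 1799, 1839 and 1846 CPM in WT against 563, 833 and 580 CPM in cKO. The WT libraries were nearly equal, with a coefficient of variation of 1.397%, whereas that of the cKO libraries was 22.9%, replicate 2 being the highest of these. The log2 fold change was -1.47 (SE 0.11, 95% interval -1.71 to -1.23, edgeR adjusted p = 2.56e-07), and it ranged from -1.67 to -1.37 when each library was left out in turn. Ptgs2 ranked 26 by mean CPM among all tested genes in WT and 127 in cKO. Among the tested genes, 2.73% changed by more than Ptgs2 in either direction.

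cKO replicate 2 also had the highest Pbrm1 of the cKO group, at 50.7 CPM against 43.5 and 42.7 CPM in replicates 1 and 3. It was the cKO library nearest to WT for 3 of the 6 genes called, Ptgs2, Ptgs1 and Akr1c18. For Pla2g4a the nearest was replicate 3, and for Ptges and Tbxas1 it was replicate 1. This library also stood apart in other measures. Mitochondrial genes took 7.81% of its counts against 6.88 and 7.08% in the other cKO libraries, nearest to WT, and the chi-square per gene was 1.48 and 1.599 for its pairs with these against 1.31 to 1.33 for the other replicate pairs. The part of these differences and of residual Pbrm1 in the spread of Ptgs2 was not tested.

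To ask how much of the cyclooxygenase message was Ptgs2, levels were expressed as CPM per kilobase of exon. Ptgs2 took 93.1, 93.7 and 93.4% of the sum of Ptgs1 and Ptgs2 in WT and 87.2, 89.98 and 87.4% in cKO. The share was lower in every cKO library than in any WT library, at 93.4% ± 0.267 and 88.2% ± 1.56 (SD, n = 3; exact permutation test, two-sided p = 0.1, the smallest that 3 against 3 allows). Ptgs2 thus remained the more abundant cyclooxygenase transcript in all 6 libraries.

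Ptges encodes the inducible, membrane-bound prostaglandin E synthase, which often rises together with Ptgs2, and here the pair changed in opposite directions. Ptges (ENSMUSG00000050737.13; chromosome 2, 30889471 to 30929863, minus strand) was at 57.4, 64.5 and 62.9 CPM in WT and 78.1, 79.6 and 83.1 CPM in cKO. The groups did not overlap, and the cKO mean was 130% of the WT mean, a log2 fold change of 0.38 (SE 0.056, edgeR adjusted p = 9.99e-05). The log2 ratio of Ptgs2 to Ptges, both per kilobase, was 4.75, 4.61 and 4.65 in WT and 2.63, 3.17 and 2.58 in cKO. It was lower in all cKO libraries, with means of 4.67 ± 0.069 and 2.79 ± 0.32 (SD, n = 3; exact permutation test, two-sided p = 0.1, the smallest possible).

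The constitutive prostaglandin E synthases gave smaller differences. Ptges2 (ENSMUSG00000026820.5; chromosome 2, 32395896 to 32405772, plus strand) was at 28.9 to 31.7 CPM in WT and 29.1 to 30.8 CPM in cKO, and its log2 fold change of 0.00 had a 95% interval of -0.14 to 0.14 (edgeR adjusted p = 0.975). Ptges3 (ENSMUSG00000071072.12; chromosome 10, 128058954 to 128077272, plus strand), better known as the HSP90 co-chaperone p23, gave 143, 153 and 153 CPM in WT against 127, 143 and 139 CPM in cKO. The lowest WT and the highest cKO library were almost equal. Its log2 fold change of -0.14 lay at the threshold (SE 0.053, edgeR adjusted p = 0.0502), which it passed in 8 of 14 alternatives, among them those without WT replicate 1 (adjusted p = 0.0391), without cKO replicate 2 (0.0121) and with the replicate block (0.0210). The counts of Ptges3 are uncertain, since the processed pseudogene Ptges3-ps matched its transcript at 100% over 480 bases and itself took 34.2 CPM (WT) and 29.7 CPM (cKO).

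**Figure D2:**
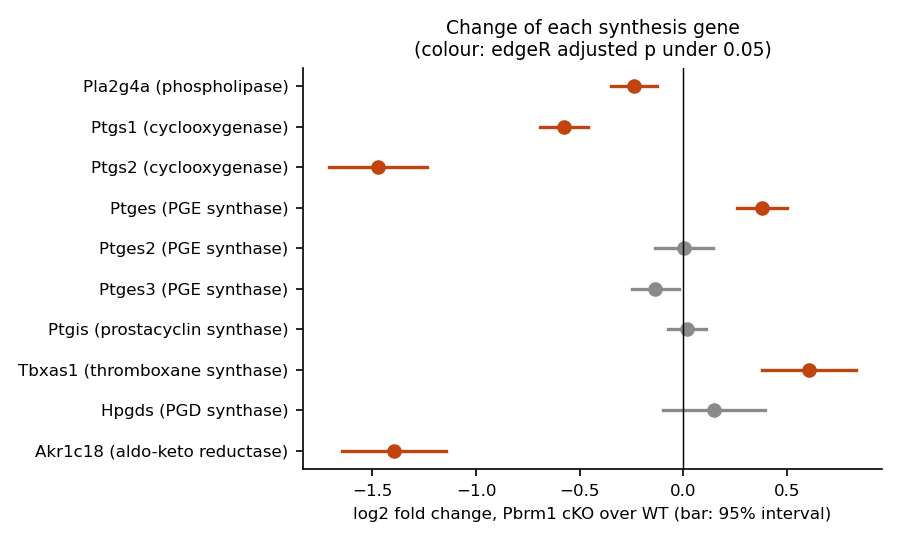
Log2 fold change of each synthesis gene, Pbrm1 cKO over WT (points), with 95% intervals from the edgeR fit over 6 libraries (bars). Orange marks an adjusted p-value under 0.05. Ptgs2 (-1.47) and Akr1c18 (-1.40) stand apart from the other genes, which lie between -0.58 and 0.60.

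Ptgis, which makes prostacyclin, a relaxant of smooth muscle, was the most abundant terminal synthase per kilobase and did not pass the test. Ptgis (ENSMUSG00000017969.13; chromosome 2, 167191805 to 167240604, minus strand) was at 296, 286 and 287 CPM in WT and 284, 302 and 294 CPM in cKO. The groups overlapped fully, and the 95% interval of the log2 fold change ran from -0.08 to 0.11 (edgeR adjusted p = 0.784), which leaves out a change of the size seen for either cyclooxygenase.

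Tbxas1 and Hpgds were the least abundant of the set per kilobase of exon. Tbxas1 (ENSMUSG00000029925.13; chromosome 6, 38875404 to 39084585, plus strand) encodes thromboxane synthase, known from platelets and macrophages. Its values were 8.27, 7.70 and 7.61 CPM in WT and 10.8, 12.9 and 12.1 CPM in cKO. All cKO libraries were higher, and the cKO mean was 152% of the WT mean, a log2 fold change of 0.60 (SE 0.11, edgeR adjusted p = 0.000404).

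Hpgds (ENSMUSG00000029919.5; chromosome 6, 65117293 to 65144908, minus strand) encodes the prostaglandin D synthase of mast cells, macrophages and other immune cells. It was at 5.97, 6.74 and 6.21 CPM in WT and 6.86, 7.27 and 6.82 CPM in cKO. The cKO libraries were all slightly higher, yet the difference did not pass the test (log2 fold change 0.15, 95% interval -0.10 to 0.39, edgeR adjusted p = 0.325).

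Markers of cells in which both genes are known were compared. All 8 leukocyte markers were called higher (median log2 fold change 0.78), and so were 9 of 12 macrophage markers with none lower (median 0.56), with C1qb (1.86), Mrc1 (1.64) and C1qc (1.49) the largest, while Mertk (-0.09), Cd14 (-0.03) and Cx3cr1 (0.43) did not pass the test. The macrophage list summed to 776 to 828 CPM in WT and 1221 to 1285 CPM in cKO. Of 9 mast cell markers, 6 (among them Cpa3, Mcpt4 and the IgE receptor gene Fcer1a) had at most 3 counts in every library. Only 2 passed the filter, of which Gata2, also active in many other cells, was lower (-0.21, edgeR adjusted p = 0.0245), a call lost without WT replicate 1 or 2 or cKO replicate 1 or 3, and Hdc did not pass the test (0.20, edgeR adjusted p = 0.370). The platelet genes Gp9 and Gp1ba were at 0 in all 6. Of the 4 other platelet markers, 3 were higher, including Pf4 (1.39) and Ppbp (0.83), and Itgb3 was lower (-0.24), so that the list summed to 185 to 194 CPM in WT and 293 to 344 CPM in cKO. The part of these cells in the values of Tbxas1 and Hpgds was not tested.

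Akr1c18 (ENSMUSG00000021214.14; chromosome 13, 4132615 to 4150654, minus strand) encodes an aldo-keto reductase that inactivates progesterone and can also form prostaglandin F2α. It was at 13.1, 15.2 and 16.2 CPM in WT and 5.17, 6.10 and 5.60 CPM in cKO, from 221, 285 and 276 counts and 92, 115 and 87 counts. All cKO libraries lay far below the lowest WT library. The cKO mean was 38.0% of the WT mean, a log2 fold change of -1.40 (SE 0.12, edgeR adjusted p = 6.29e-07), and 3.16% of tested genes changed by more. No other gene's transcript matched that of Akr1c18 at 90% identity over 300 bases.

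The relatives of Akr1c18 did not all share its direction. Of 9 further AKR1C and AKR1E genes, 4 passed the filter. Akr1c14, a steroid dehydrogenase gene in the same cluster on chromosome 13, rose from 21.7 to 41.8 CPM (log2 fold change 0.95, edgeR adjusted p = 6.65e-07), with every cKO library above every WT library. Akr1cl on chromosome 1 fell from 44.3 to 16.9 CPM (-1.41, edgeR adjusted p = 2.33e-06), Akr1c13 was at 4.14 and 4.41 CPM (0.08, edgeR adjusted p = 0.745), and Akr1e1 was higher (0.22, edgeR adjusted p = 0.0204), a call lost under DESeq2 and without WT replicate 1 (0.0608), WT replicate 2 (0.0733), cKO replicate 1 (0.0768) or cKO replicate 3 (0.0594). Reads that map equally to several such related genes are left out of the counts, so their levels can be uncertain.

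Other enzymes that can form prostaglandins, and relatives of such enzymes, were compared as well. Of 10 listed, 9 were in the table and 7 passed the filter, 1 higher and 3 lower (median log2 fold change -0.17). Gstm2, a glutathione transferase with prostaglandin E synthase activity, was higher (0.65, edgeR adjusted p = 0.000224). The aldo-keto reductase genes Akr1b8 (-0.23) and Akr1b3 (-0.17) and the carbonyl reductase gene Cbr3 (-0.26) were lower. The call of Akr1b3 was lost in 7 of 14 alternatives and that of Cbr3 in 3, so that 2 of the 7 genes were called under DESeq2, without WT replicate 2 and without cKO replicate 3. Ptgds, the other prostaglandin D synthase, averaged 0.269 CPM (WT) and 0.120 CPM (cKO) and did not pass the filter.

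Per kilobase of exon, levels in WT ran from Ptgs2 (399 CPM per kilobase) over Ptgis (113), Ptges3 (67.5), Ptgs1 (28.2), Pla2g4a (24.3), Ptges (15.7), Akr1c18 (12.3), Ptges2 (5.96) and Hpgds (0.981) to Tbxas1 (0.864), and no neighbours in this order had overlapping ranges. The length used was that of all annotated exons of a gene, so the order also depends on the annotation. By CPM alone, Tbxas1 (7.86) stood above Hpgds (6.30) in WT. In cKO the order began with Ptgs2 (144), Ptgis (114) and Ptges3 (61.4). Pla2g4a (20.6), Ptges (20.4) and Ptgs1 (18.9) then came close together, with ranges of Ptges that overlapped those of Pla2g4a and Ptgs1. Ptges2 (5.97) stood above Akr1c18 (4.66) in cKO, and Tbxas1 (1.31) above Hpgds (1.09). The lead of Ptgs2 over Ptgis narrowed. In WT Ptgs2 was at 393, 402 and 403 and Ptgis at 115, 111 and 112 CPM per kilobase, whereas in cKO Ptgs2 was at 123, 182 and 127 and Ptgis at 111, 118 and 115 CPM per kilobase.

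**Figure D3:**
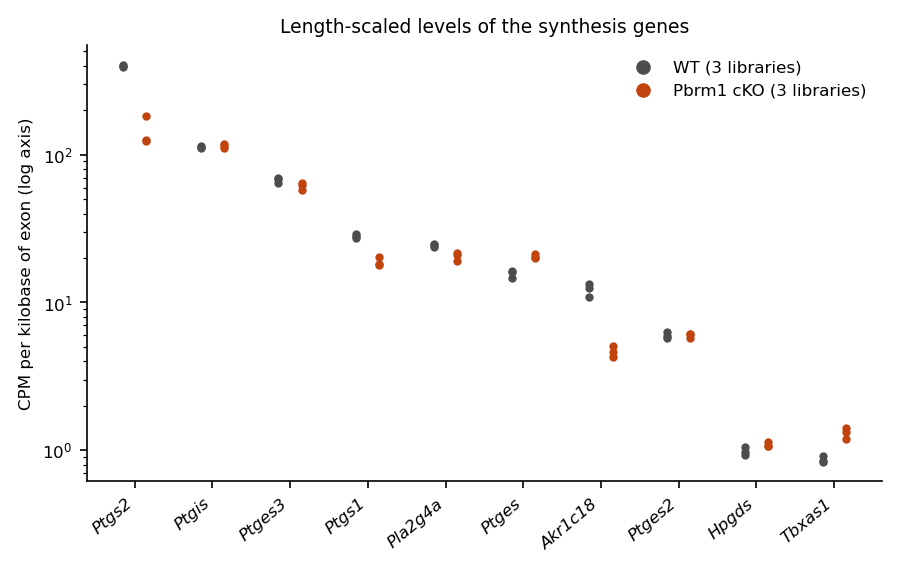
CPM per kilobase of exon (log axis) of the synthesis genes in each of the 3 WT (grey) and 3 Pbrm1 cKO (orange) libraries, in order of the WT mean. Ptgs2 drops from 399 to 144 on average, close to Ptgis, while Akr1c18 drops below Ptges2.

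The sum of the 10 genes per kilobase was 668 ± 8.48 in WT and 392 ± 40.9 in cKO (SD, n = 3), or 58.8% of WT. Ptgs2 made up 59.8% ± 0.152 of that sum in WT and 36.4% ± 4.42 in cKO, and 92.7% of the fall in the sum was that of Ptgs2. The sum of the other 9 genes was 92.5% of WT. These sums describe transcripts and not the activity of the enzymes.

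Genes for prostaglandin receptors and breakdown enzymes were more often called higher than lower in cKO. Of 15 genes for receptors, transport and breakdown, 13 passed the filter. In cKO 7 were called higher and 1 lower (median log2 fold change 0.29), against 21.9% and 21.8% of all tested genes. The transporter genes Slco2a1 (0.03, edgeR adjusted p = 0.788) and Abcc4 (0.05, edgeR adjusted p = 0.528) did not pass the test. Ptgfr, the prostaglandin F2α receptor gene, went from 2.53 to 8.88 CPM (1.79, edgeR adjusted p = 3.34e-06), and Ptgir, the prostacyclin receptor gene, at 10.8 and 17.6 CPM (0.70, edgeR adjusted p = 4.51e-05). The breakdown enzyme gene Zadh2 rose from 20.97 to 37.5 CPM (0.84). Hpgd, which encodes the dehydrogenase that begins prostaglandin breakdown and was named after its value was seen, rose from 11.2 to 15.6 CPM (0.48, edgeR adjusted p = 0.000404).

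The receptor genes for prostaglandins D and E were less certain. Ptgdr2 (0.395 to 0.899 CPM, 1.14) and Ptger1 (0.845 to 1.57 CPM, 0.86) were called higher at low levels, and Ptger3 (-0.52) was called lower. The first call was lost under DESeq2 and without WT replicate 1 (edgeR adjusted p = 0.127), 2 (0.0540) or 3 (0.0587) or cKO replicate 3 (0.120). The second was lost under DESeq2 and without WT replicate 1 (0.101) or 3 (0.0836) or cKO replicate 3 (0.101), and the third under DESeq2 and without WT replicate 3 (0.0947) or cKO replicate 1 (0.103). As a result 4 rather than 8 genes of the list were called under DESeq2 and without WT replicate 3. Ptger2 (0.29, edgeR adjusted p = 0.135) and Ptger4 (0.10, edgeR adjusted p = 0.344), whose products raise cAMP, did not pass the test.

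**Figure D4:**
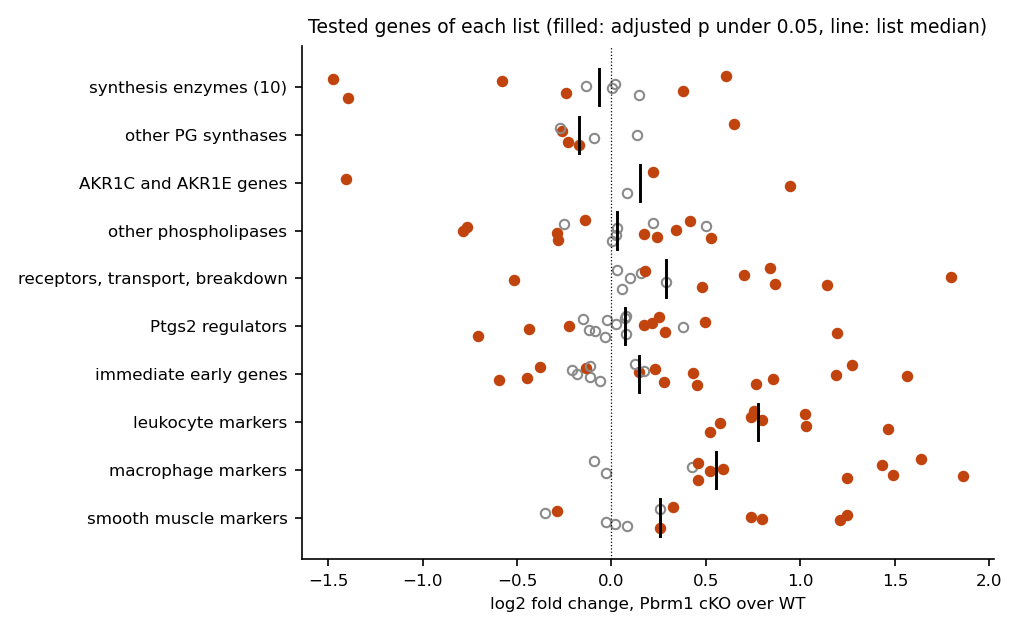
Log2 fold change, Pbrm1 cKO over WT, of every tested gene (points) in the synthesis set, in related lists and in marker lists. Filled points have an edgeR adjusted p-value under 0.05 and black lines are list medians, such as -0.07 for the synthesis enzymes, 0.29 for receptors, transport and breakdown, and 0.78 for leukocyte markers.

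Genes around Ptgs2 were compared to see whether its fall extended along the chromosome. Pla2g4a is the nearest protein-coding gene on its left, with 138.7 kb between the genes, and both fell. On the right the nearest tested protein-coding gene was Odr4, 253.1 kb away, with means of 34.4 CPM (WT) and 37.6 CPM (cKO) (log2 fold change 0.13, edgeR adjusted p = 0.164, and 0.0321 without cKO replicate 2). Of 8 tested genes other than Ptgs2 that lie at least in part within 500 kb of it, 3 were called. Over all tested genes 43.7% were called, so this count does not set the region apart. The 3 genes were Pla2g4a and, named after their values were seen, Tpr (-0.35), a nuclear pore gene, and Hmcn1 (1.27), a matrix gene.

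Close to Ptgs2 lie noncoding genes on the other strand. Ptgs2os starts 68 bases from the start of Ptgs2 and runs away from it, so that its first exon reaches into the Ptgs2 promoter sequence given above. It had 46, 42 and 43 reads in WT against 29, 51 and 40 in cKO, and the groups overlapped (log2 fold change -0.11, 95% interval -0.58 to 0.35, edgeR adjusted p = 0.707). Ptgs2os2, 50.8 kb beyond the end of Ptgs2, had 32, 60 and 39 reads in WT against 18, 31 and 33 in cKO (-0.65, edgeR adjusted p = 0.0730). It was called without WT replicate 1 (0.0465), without cKO replicate 3 (0.0293), with no filter (0.0184) and with the replicate block (0.0416). The interval of Ptgs2os left out a fall as large as that of Ptgs2, but its counts were low. Reads were counted by strand, so that sense and antisense transcripts were kept apart.

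**Figure D5:**
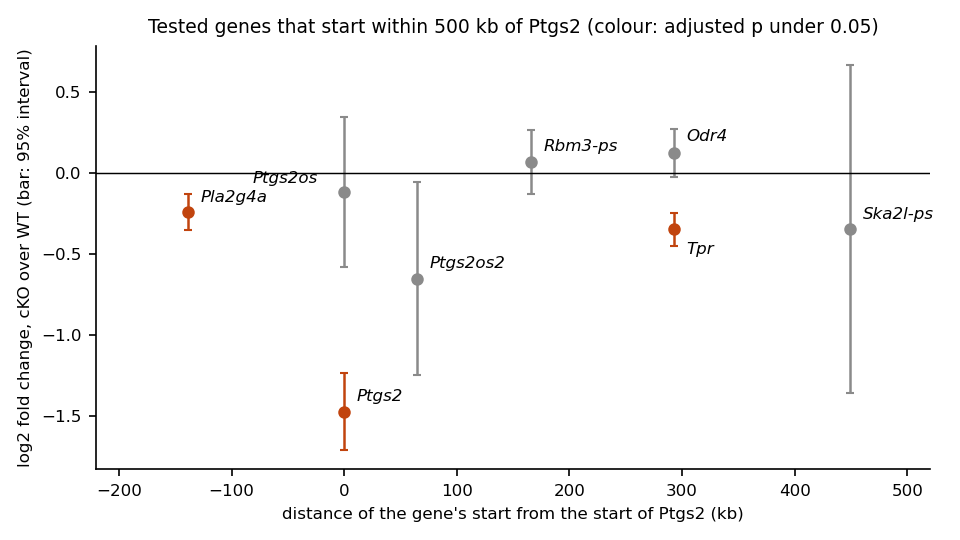
Log2 fold change, Pbrm1 cKO over WT, with 95% intervals (bars) of tested genes whose start lies within 500 kb of the start of Ptgs2, by distance in kb (negative to the left of Ptgs2). Ptgs2 at 0 kb has a log2 fold change of -1.47, while its antisense neighbour Ptgs2os at nearly the same place has -0.11 with an interval that includes 0.

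Ptgs2 belongs to the genes that serum and tissue digestion switch on early, so others of that kind were examined. Of 21 such genes, all tested, 10 were higher and 4 lower in cKO (median log2 fold change 0.15). Of all tested genes, 21.9% were called higher and 21.8% lower. Socs3 rose from 23.5 to 56.8 CPM (1.27), Fos from 32.6 to 58.9 CPM (0.85) and Dusp1 from 46.9 to 79.7 CPM (0.76). The heat shock genes Hspa1a (1.56) and Hspa1b (1.19) were higher too. Reads that map to both of these near-identical genes are left out of the counts, so the level of each is uncertain. The 4 that fell, like Ptgs2, were Egr3 (-0.59), Fosb (-0.44), Myc (-0.38) and Klf6 (-0.14). Across the alternatives 12 to 17 genes of this list were called. The part of digestion and serum in the result for Ptgs2 was not tested.

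Among 19 genes for factors known to act on the Ptgs2 promoter or on its mRNA, 6 were higher and 3 lower (median log2 fold change 0.07). The C/EBP family was divided, with Cebpd higher (6.21 to 14.2 CPM, 1.19), Cebpa lower (19.6 to 12.0 CPM, -0.71) and Cebpb at 40.7 and 43.1 CPM (0.08, edgeR adjusted p = 0.641). Relb of the NF-kB family was higher (0.50), as were the RNA-binding protein genes Celf2 (0.28) and Zfp36l1 (0.25). Nfatc1 was lower (-0.44), a call lost under DESeq2 (adjusted p = 0.158) and without WT replicate 1 (0.0779), WT replicate 2 (0.0806), cKO replicate 1 (0.106) or cKO replicate 3 (0.0737).

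The genes whose pattern was most like that of Ptgs2 were found by the Euclidean distance between centred log2 CPM over the 6 libraries, among 9305 protein-coding genes at 10 CPM or more. The nearest 5 were B3gnt5, a glycosyltransferase gene (distance 0.210), Ramp3, which encodes a partner of the adrenomedullin receptor (0.321), Nt5e, which encodes the adenosine-forming enzyme CD73 (0.340), Lrp2, which encodes the endocytic receptor megalin (0.340), and Esm1, which encodes the secreted proteoglycan endocan (0.367). B3gnt5 was at 27.3, 28.3 and 28.4 CPM in WT and 7.59, 11.1 and 8.43 CPM in cKO, with the highest cKO value in replicate 2 as for Ptgs2. Of the synthesis set, Akr1c18 came nearest to Ptgs2, at rank 7 (0.378), and Ptgs1 followed at rank 222 (1.17). All these distances rest on the same 6 libraries and largely on the difference between the groups.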

How the data were processed

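Per the labels, cDNA of total RNA was primed with random and poly(T) primers, selected by strand and depleted of unwanted transcripts. The authors deposited whole-number counts per gene, made per the file headers with featureCounts 1.6.4 over GENCODE M18 exons in reverse-stranded mode, where reads with several map positions are left out. The submitters' processing notes name cutadapt, HISAT2 and GRCm38.p5.

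Counts were analysed in R 4.3.3 by the quasi-likelihood F-test of edgeR 4.0.16 (TMM, two-sided, filterByExpr by group, Benjamini-Hochberg over 15376 genes, threshold 0.05). DESeq2 1.42.0, the tool of the study's methods, and limma-voom 3.58.1 were among the alternatives. The SE was the absolute log2 fold change divided by the square root of F. The biological coefficient of variation was 5.32%. Every pair of replicates differed by more than sampling noise. The floor of 3 counts covers counting error only, since reads carried no molecular identifiers.

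Symbols were given to 54079 genes from GENCODE M21 of the same build. Promoters are from RefSeq, and sequence relatives were sought with BLAST 2.17.0 (90% identity over 300 bases). The C/EBP letters were corrected after the windows had been seen.

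The genes, the lists and the tests were chosen with earlier results of these data known. Named were all 10 genes, Pbrm1, Pgr, up to 6 called genes with the largest change per related list, the nearest protein-coding genes beside Ptgs2 and the 5 genes most like Ptgs2, with exceptions stated. Akr1c13, Ptgds, Ptger2, Ptger4, Slco2a1, Abcc4, Cebpb, Alox5, Fosb, Myc, Klf6 and the cell type markers given by name were added after their values were seen.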

Additional observations from a re-analysis of the deposited data

How the results depend on the processing

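Of the 10 synthesis genes, 8 kept their direction and their side of the threshold in all 14 alternatives, with Ptgs2 between -1.67 and -1.37 and Ptges between 0.33 and 0.41 on the log2 scale. The count of called synthesis genes was 6 or 7, the seventh being Ptges3 in 8 alternatives. The log2 fold change of Ptges2, near 0 throughout, changed sign with upper quartile factors (-0.0089), with no filter (-0.0070) and in 4 of the 6 fits that left out 1 library. Over those 6 fits it ran from -0.027 to 0.039, and none passed the threshold (lowest adjusted p = 0.707). That of Ptgs2os became 0.088 without cKO replicate 1 (range over left-out libraries -0.26 to 0.088). The cause was not tested. Over all genes, 5532 to 7054 were called when each library was left out in turn, against 6723. Called genes were 2 under DESeq2 and at a threshold of 0.01 among other prostaglandin synthases (2 to 4 with 1 library left out, against 4), and 4 under both among receptors, transport and breakdown (4 to 9, against 8). They were 1 with no filter and with the replicate block for the antisense genes at Ptgs2 (0 to 1, against 0), 0 at 0.01 for mast cell markers (0 to 1, against 1) and 5 at 0.01 for epithelial markers (5 to 9, against 8, with 5 without WT replicate 1). A threshold of 0.01 calls fewer genes by its construction.

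Libraries of the same replicate number did not deviate together (correlations of deviations -0.0243, 0.0353 and 0.0928). With the replicate block, 6908 genes were called, 6617 of them shared, and the synthesis genes gained Ptges3. The share of Ptgs2 among cyclooxygenase transcripts differed by -6.12 to -4.56 percentage points and the log2 ratio of Ptgs2 to Ptges by -2.06 to -1.77 over their 8 alternatives, and with pairs the smallest p is 0.25. Pgr, where the cre lies, had a log2 fold change of -0.05 (edgeR adjusted p = 0.508), with 0.0360 without cKO replicate 2. Under the other scalings the all-gene median stayed within 0.0174 of 0 (log2). Depth limits what can be said of genes with few reads, such as Ptgs2os with 29 to 51 counts per library.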

Other observations

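Arachidonic acid also feeds lipoxygenases and epoxygenases, and of 15 such genes 10 passed the filter, 4 higher and 2 lower in Pbrm1 cKO cells (median log2 fold change 0.09). Cyp2j9, a cytochrome P450 of the epoxygenase family, went from 0.682 to 3.8 CPM (log2 fold change 2.46, SE 0.22, edgeR adjusted p = 1.50e-06), and its relative Cyp2j6 was at 17.4 and 23.5 CPM (0.44). Ephx2, which encodes the soluble epoxide hydrolase that breaks down their products, fell from 153 to 92.4 CPM (-0.73, edgeR adjusted p = 0.00231), while Ephx1, the microsomal hydrolase gene, rose from 36.9 to 46.6 CPM (0.33). The cKO libraries were uneven for Ephx2, at 106, 59.0 and 112 CPM in replicates 1, 2 and 3. Reads that map equally to several of the related Cyp2j genes are left out of the counts, so their levels can be uncertain.

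On the lipoxygenase side, Alox15 fell from 9.58 to 5.81 CPM (-0.72, edgeR adjusted p = 0.00170). Alox5ap, which encodes the activating protein of 5-lipoxygenase, rose from 10.0 to 14.9 CPM (0.57, edgeR adjusted p = 0.000190). Alox5 itself was at 1.61 and 1.70 CPM (0.12, edgeR adjusted p = 0.781). Alox5ap is known from leukocytes, whose 8 markers were all higher in cKO, and their part in this result was not tested. Further composition lists gave 8 of 12 fibroblast markers higher and 2 lower, 6 of 12 epithelial markers higher and 2 lower, 3 of 10 endothelial markers higher and 1 lower, 1 of 6 tested mesothelial markers higher and 3 lower, 6 of 12 smooth muscle markers higher and 1 lower, and 0 of 2 tested mast cell markers higher and 1 lower.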
